A study of Drosophila melanogaster with 12 samples.

Results

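The difference between Drosophila melanogaster males kept on 0.25% and on 4% yeast extract (YE) food was measured after averaging the more and the less heavily translated fractions of their polysomes. All 12 arrays of the series entered the comparison, 6 for each diet. For each gene, the level on 0.25% YE was taken as the mean of the high and low fractions, the level on 4% YE likewise, and the difference was expressed on the log2 scale, so that a negative value is a lower level under yeast restriction. The average gives each fraction equal weight whatever amount of RNA it held, and mRNA free of ribosomes was not measured, so the value stands for the relative abundance of an mRNA on polysomes and not for its total amount.

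The flies were w1118 males, a white-eyed laboratory strain used here with no transgene, moved to the food at 1 to 2 days of age and kept there for 6 days. About 100 males were ground for each extract and their polysomes were resolved by sedimentation through sucrose. The high fraction (5 or more ribosomes per mRNA) and the low fraction (1 to 4 ribosomes) were hybridised separately to Affymetrix arrays from 100 ng of RNA. The 4 groups, each with 3 arrays described as biological replicates, were the high and low fractions on 4% YE (the rich diet) and the high and low fractions on 0.25% YE (the restricted diet). High and low arrays carrying the same number on the same diet are called a gradient below, and the test compared 3 gradients with 3. That such arrays came from the same extract is an assumption, since the labels do not state it. Whole flies were pooled, so a lower level cannot be assigned to fewer cells of a type or to less RNA per cell, which cannot be told apart here.

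Yeast extract is a main source of amino acids, nucleic acids and vitamins in laboratory fly food. Lowering it is one way to impose dietary restriction on flies. The fat body, which combines functions of the vertebrate liver and adipose tissue, and the midgut, which digests and absorbs the food, are the tissues best known for responding to it. Insulin and TOR signalling link amino acid supply to ribosome production and translation, and the transcription factor foxo is active when insulin signalling is low.

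Quantile-normalized intensities of 11261 probe sets, standing for 9494 genes, were tested after the dimmest 40% were left out. Between 59.0% and 66.4% of the probe sets on an array lay above background, taken as the 95th percentile of the control probe sets. Arrays 2 and 3 of a group correlated at 0.978 to 0.988 across probe sets, and array 1 correlated with either at 0.859 to 0.943, so the arrays numbered 1 stood apart in every group. The female list of yolk and eggshell genes summed to between 134 and 211 intensity units on the rich diet and between 135 and 209 on the restricted diet, with 10 of its 18 genes at background on all 12 arrays.

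In the fit reported here, many more genes fell than rose under yeast restriction, an excess that depended on how the number 1 arrays were handled. Across genes, 115 of 9494 were lower on 0.25% YE (1.21%) and 16 were higher (0.169%) by limma's moderated test with a two-sided Benjamini-Hochberg adjusted p under 0.05. Such genes are called below. The called falls had a median difference of -1.42 on the log2 scale and ranged from -6.49 to -0.62, while the called rises had a median of 1.08 and ranged from 0.64 to 4.16. The median over all genes was 0.03. Of the 115 falls, 113 were lower on 0.25% YE in each of the 6 same-numbered pairs of arrays (8.72% of all genes), and all 16 rises were higher in each pair (8.3%). In 77 of the falls the 6 restricted arrays lay below the 6 rich arrays (1.71%), and in 6 of the rises they lay above them (0.432%). These counts use the values that made the calls and are given as a description. On the diet where they were lower, 19 of the 131 called genes had at least 1 array at background, and 9 had a mean below the intensity filter of 23.7 and so were tested only through the other diet.

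The number of calls depended on which gradients were compared. At the level of probe sets there were 21 rises (0.186%) and 136 falls (1.21%), and 1421 probe sets passed an unadjusted p of 0.05 where 563 would do so by chance. Gradients of the same number deviated together across the diets, but so did gradients 2 and 3 when crossed, so only number 1 was set apart. A model with the number as a replicate block called 285 probe sets higher (2.53%) and 506 lower (4.49%), with all 157 original calls among them. By gene, the replicate block gave 216 rises (2.28%) and 440 falls (4.63%). With number 1 against 2 and 3 as a block, chosen after seeing the data, the counts were 749 higher and 802 lower. With number 1 left out on both diets the counts were 1278 higher and 1152 lower. Leaving out gradient 1, 2 or 3 of the rich diet left 9, 2 and 2 rises with 50, 15 and 13 falls, and leaving out gradient 1, 2 or 3 of the restricted diet left 81, 2 and 2 rises with 234, 37 and 32 falls. All calls together were 0.524%, 0.151% and 0.133% of probe sets in the former fits and 2.80%, 0.346% and 0.302% in the latter. The counts by list given below for these fits are to be read beside those shares, since the total changes too. Among the 45 called genes chosen for description by rule, all kept their sign in every alternative fit that tested them, and 7 stayed called in every one of those fits, namely Gart, CG3999, CG13325, Cyp309a1, acs, CG13215 and CG13947.

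**Figure D1:**
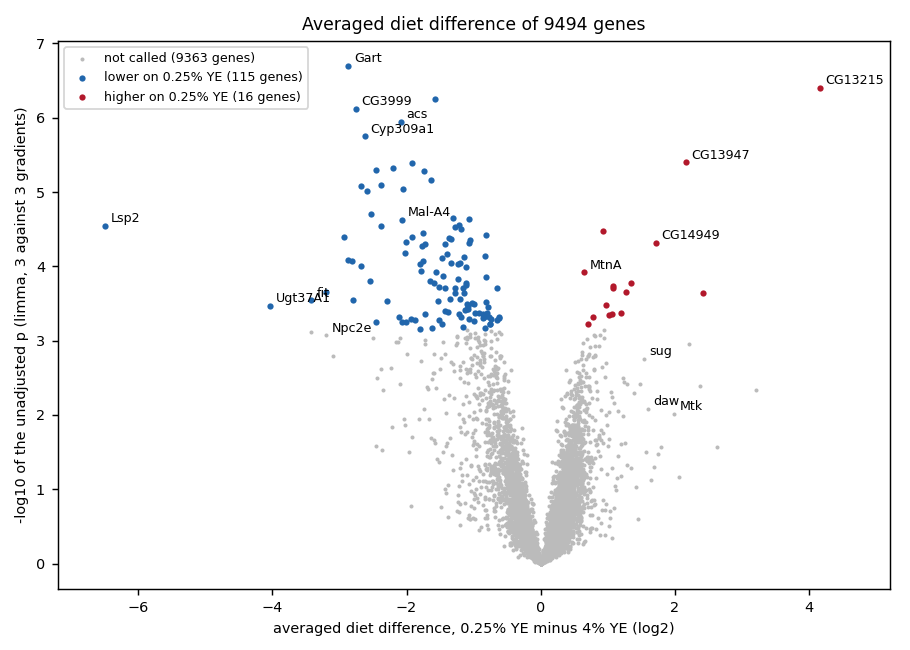
Averaged diet difference of each of 9494 genes (log2, 0.25% YE minus 4% YE) against the −log10 of its unadjusted limma p from 3 against 3 gradients. Blue points are the 115 called falls, red points the 16 called rises and grey points genes not called. The falls reach from -0.62 to -6.49 (Lsp2), and the red point farthest to the right is CG13215 at 4.16.

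The largest fall was that of Lsp2, larval serum protein 2, a storage protein of the fat body. On the rich diet its intensities were 5856, 6995 and 6744 in the high fraction and 4755, 4975 and 4338 in the low one. On the restricted diet they were 17.8, 144 and 174 in the high fraction and 15.1, 71.4 and 94.2 in the low fraction, so that every restricted array lay far below every rich one. The difference was -6.49 ± 0.70 (SE, n = 3 gradients per diet, adjusted p = 0.011), which is a 90.1-fold lower geometric mean. Gradient 1 showed the widest gap, -8.25 against -5.85 and -5.39 for gradients 2 and 3, and the estimate lay between -7.03 and -5.58 when a gradient was left out, losing its call in 3 of those 6 fits.

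Among 14 tested genes for secreted proteins of the fat body, 3 fell (Lsp2, fit and Tsf1, against 1.21% of all genes) and none rose, with a median of -0.55. fit, a secreted peptide of the fat body linked to satiety after protein feeding, ranged from 2006 to 4179 (median 2986) on the rich diet and from 98 to 621 (median 349) on the restricted diet, without overlap. It fell by 3.42 ± 0.52 on the log2 scale (adjusted p = 0.033), with gradient 1 again widest at -4.39 against -2.88 and -2.99. Tsf1, a transferrin that carries iron in the haemolymph, went from 3603 to 6312 (median 5126) to between 1736 and 3558 (median 2115). Its groups did not overlap either, and the difference was -1.07 ± 0.11 (adjusted p = 0.011). A dimmer Tsf1 probe set showed -2.84 ± 0.94 and was not called (adjusted p = 0.26). The lipid carrier apolipophorin (apolpp), which is also made in the fat body, differed by -0.11 ± 0.13, so the list did not move as a block. Its summed intensity was 40274 to 47711 on the rich arrays and 19839 to 32982 on the restricted arrays. Without gradient 1, 2 or 3 of the rich diet the list held 1, 0 and 0 falls, and without gradient 1, 2 or 3 of the restricted diet 5, 2 and 2.

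**Figure D2:**
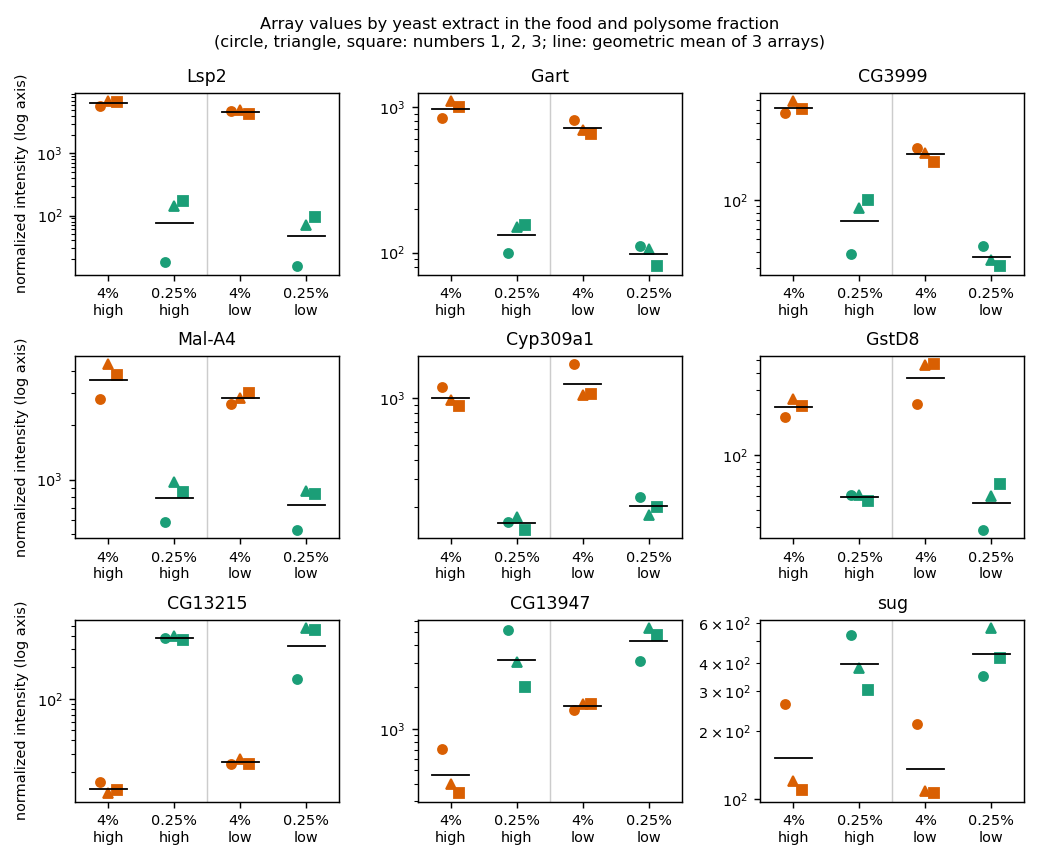
Normalized intensity (log axis) of 9 genes on the 12 arrays, with circles, triangles and squares for numbers 1, 2 and 3 and a line at the geometric mean of each group of 3 arrays. The 6 genes in the upper rows lie lower on 0.25% YE (green) than on 4% YE (orange) in both fractions, and the 3 in the bottom row lie higher. The number 1 array of Lsp2 on 0.25% YE is the lowest in each fraction (17.8 and 15.1).

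Among the enzymes of amino acid breakdown, the 4 called genes of smallest p were CG3999, CG6415, Shmt and Sardh. The glycine cleavage system breaks glycine down in mitochondria and loads its carbon on to folate, and CG3999, its glycine dehydrogenase subunit, ranged from 197 to 590.5 (median 365) on the rich diet and from 30.6 to 101 (median 41.1) on the restricted diet. The groups did not overlap and the difference was -2.76 ± 0.17 (adjusted p = 0.0017), a 6.76-fold lower level. CG6415, the aminomethyltransferase of the same complex, went from 442 to 778 (median 583) to between 128 and 260.2 (median 209.6), a difference of -1.57 ± 0.21 (adjusted p = 0.020). Shmt, which interconverts serine and glycine, went from 1995 to 4132 (median 2639.6) to between 547 and 1714 (median 793), a difference of -1.60 ± 0.22 (adjusted p = 0.024). For both genes all rich arrays exceeded all restricted arrays. Sardh, sarcosine dehydrogenase, showed the same separation, at 241 to 424 (median 345) against 74.0 to 214 (median 107), and fell by 1.39 ± 0.22 on the log2 scale (adjusted p = 0.040).

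These 4 genes belong to a list of amino acid breakdown enzymes in which 6 of 27 tested genes fell and none rose, with a median of -0.58, against falls in 1.21% of all genes. The other called members were Ahcy, which hydrolyses S-adenosylhomocysteine (-0.98 ± 0.16, adjusted p = 0.040, or 0.12 with the gradient as a random block), and Got2, the mitochondrial aspartate aminotransferase (-0.74 ± 0.12, adjusted p = 0.041). Of the 27, 16 were lower in all 6 same-numbered pairs of arrays, against that 8.72% of all genes. With the replicate block 13 of 27 were called lower (4.63% of all genes), including ornithine aminotransferase (Oat, -2.35 ± 0.58, adjusted p = 0.14, or 0.014 with the block) and cystathionine gamma-lyase (Cth, -1.14 ± 0.27, adjusted p = 0.12, or 0.0025 with the block). Several breakdown enzymes differed little, among them glutamate dehydrogenase (Gdh, 0.05 ± 0.20) and proline dehydrogenase (slgA, 0.25 ± 0.20). Leaving out gradient 1, 2 or 3 of the rich diet left 1, 1 and 1 falls in the list, and leaving out those of the restricted diet left 9, 1 and 2.

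The 3 enzymes that make serine from a glycolytic intermediate each fell. CG6287, phosphoglycerate dehydrogenase, ranged from 1801 to 3871 (median 2319) on the rich diet and from 1147 to 1755 (median 1339) on the restricted diet, without overlap, and differed by -0.82 ± 0.13 (adjusted p = 0.034). CG11899, phosphoserine aminotransferase, went from 995 to 2469 (median 1665) to between 444 and 1054 (median 690.0), a difference of -1.23 ± 0.13 (adjusted p = 0.011). aay, phosphoserine phosphatase, went from 883 to 2604 (median 1867) to between 373 and 1069 (median 856), a difference of -1.15 ± 0.17 (adjusted p = 0.028). The ranges of the last 2 genes overlapped over the 6 arrays but not within either fraction. They were the 3 called among the 9 tested genes (1.21% of all genes) of an amino acid stress response list, whose other members included the transcription factor crc (0.44 ± 0.15, adjusted p = 0.26), the fly ATF4, and the kinase Gcn2 (-0.01 ± 0.27). The list's falls numbered 1, 0 and 0 without gradient 1, 2 or 3 of the rich diet and 3, 0 and 0 without those of the restricted diet.

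Purine synthesis, which uses glycine and folate-bound carbon, held the gene with the smallest p of all those tested, Gart. Gart, the trifunctional enzyme of the early purine pathway, read 838, 1098 and 998 in the high fraction and 815, 692 and 655 in the low fraction on the rich diet. On the restricted diet it read 99.6, 149 and 154 in the high fraction and 110.3, 106 and 80.4 in the low fraction, so all restricted arrays were below all rich arrays. The difference was -2.87 ± 0.15 (adjusted p = 0.0015), 7.30-fold, and it was nearly equal in the high (-2.88) and low (-2.86) fractions. pug, a trifunctional folate enzyme that supplies carbon units to the pathway, went from 1601 to 2744 (median 2354) to between 734 and 1409 (median 783), without overlap, and fell by 1.24 ± 0.16 (adjusted p = 0.017). The pug probe set is of a kind that can also bind other transcripts. Adsl, adenylosuccinate lyase, fell by 1.12 ± 0.16 (adjusted p = 0.024) and ry, the xanthine dehydrogenase that degrades purines, fell by 1.00 ± 0.17 (adjusted p = 0.042), each with overlap over the 6 arrays but none within a fraction.

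In the whole purine list, 4 of 15 tested genes fell (1.21% of all genes) and none rose, with a median of -0.85. The replicate block called 10 of 15 lower (4.63% of all genes), adding Prat2, the amidophosphoribosyltransferase of the first committed step (-1.58 ± 0.32, adjusted p = 0.077, or 0.0016 with the block), and the mitochondrial folate enzyme Nmdmc (-1.74 ± 0.48, adjusted p = 0.18, or 0.0016 with the block). Beside the called Adsl, other genes of the steps from inosine monophosphate to the adenine and guanine nucleotides differed little, since Adss (adenylosuccinate synthetase) was at -0.00 ± 0.15, ras (inosine monophosphate dehydrogenase) at 0.02 ± 0.15 and bur (guanosine monophosphate synthetase) at 0.00 ± 0.21. Prat, a second amidophosphoribosyltransferase gene, differed by 0.10 ± 0.29. Without gradient 1, 2 or 3 of the rich diet the list held 1, 1 and 1 falls, and without those of the restricted diet 6, 1 and 1.

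Of 11 tested genes for maltases and amylases, which digest maltose and starch, 5 fell (1.21% of all genes) and none rose. All 11 had a negative difference, as did 45.8% of all genes, and the median was -1.52. Amyrel, an amylase-related enzyme, ranged from 175 to 559.6 (median 276) on the rich diet and from 20.6 to 80.1 (median 42.1) on the restricted diet, a difference of -2.81 ± 0.36 (adjusted p = 0.017). Mal-A4, a maltase, went from 2626 to 4338 (median 2918) to between 527 and 972 (median 844), a difference of -2.07 ± 0.22 (adjusted p = 0.011). Neither gene had overlapping groups. Mal-A8 (-1.52 ± 0.26), Mal-A2 (-1.63 ± 0.29) and Mal-B2 (-0.80 ± 0.13) were the other called maltases, with adjusted p of 0.041, 0.049 and 0.040. The replicate block called 9 of 11 lower (4.63% of all genes). The falls numbered 1, 0 and 0 without gradient 1, 2 or 3 of the rich diet and 7, 2 and 1 without those of the restricted diet.

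Of 37 other tested genes for midgut enzymes, 1 fell (1.21% of all genes), the alpha-mannosidase LManIV, from 33.6 to 153 (median 49.7) on the rich diet to between 2.87 and 19.5 (median 10) on the restricted diet (fitted difference -2.79 ± 0.43, adjusted p = 0.033). These groups did not overlap. Only 1 of the 6 restricted arrays was above background and the gene passed the intensity filter through the rich arrays, so it was at least 3.25-fold lower. The median of the list was -0.18. With the replicate block 10 were lower (4.63% of all genes), among them Jon25Bi, a serine protease (-1.69 ± 0.41, adjusted p = 0.13, or 3.0e-04 with the block). In that fit 1 was higher (2.28% of all genes), the trypsin epsilonTry (0.64 ± 0.22, adjusted p = 0.29, or 0.018 with the block). Leaving out gradient 1, 2 or 3 of the rich diet left 1, 0 and 0 falls, and leaving out those of the restricted diet left 3, 0 and 0.

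Cytochrome P450s oxidise foreign compounds and hormones. They were the longest list tested, and 10 of 72 genes fell (1.21% of all genes) while none rose, with a median of -0.32. Cyp309a1 ranged from 881 to 1634 (median 1050.0) on the rich diet and from 143 to 231 (median 175) on the restricted diet, a difference of -2.62 ± 0.19 (adjusted p = 0.0029). Its neighbour in the genome, Cyp309a2, went from 321 to 619.5 (median 387) to between 59.4 and 205 (median 126), a difference of -1.75 ± 0.19 (adjusted p = 0.012). Cyp12d1-d went from 83.9 to 271 (median 146) to between 26.5 and 80.3 (median 43.5), a difference of -1.64 ± 0.14 (adjusted p = 0.0052). None of these 3 genes had overlapping groups. Cyp6g1, known for its part in insecticide resistance, fell by 0.82 ± 0.09 (adjusted p = 0.012, or 0.10 with the gradient as a random block) and its ranges overlapped over the 6 arrays. Probes of P450s that are near copies of each other can share signal. The replicate block called 21 of 72 lower (4.63% of all genes). The list held 4, 1 and 1 falls without gradient 1, 2 or 3 of the rich diet and 11, 2 and 3 without those of the restricted diet.

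Glutathione S-transferases conjugate such compounds with glutathione. Of 33 tested 2 fell (1.21% of all genes) and none rose, with a median of -0.46 and 29 of 33 differences below 0 (45.8% of all genes). GstD8 ranged from 191 to 462 (median 247) on the rich diet and from 28.4 to 61.9 (median 50.5) on the restricted diet, without overlap, and differed by -2.59 ± 0.24 (adjusted p = 0.0057). GstD4 ranged from 40.5 to 69.9 (median 52.6) on the rich diet and was not above background on any restricted array, so it was at least 2.62-fold lower (adjusted p = 0.011). The replicate block called 12 of 33 lower (4.63% of all genes), among them GstD10 (-2.16 ± 0.41, adjusted p = 0.061, or 1.3e-04 with the block) and GstE7 (-1.68 ± 0.41, adjusted p = 0.13, or 8.4e-04 with the block). GstE9 was represented by a brighter probe set at -0.60 ± 0.11 (adjusted p = 0.056) and a dimmer one at -2.07 ± 0.30 (adjusted p = 0.028), so its size depended on the probe set. The glutathione S-transferase falls numbered 2, 1 and 0 without gradient 1, 2 or 3 of the rich diet and 7, 1 and 2 without those of the restricted diet.

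Among 28 UDP-glycosyltransferases, which attach sugars to lipophilic compounds, 4 fell (1.21% of all genes), none rose and the median was -0.48. Ugt37A1 went from 56.6 to 581 (median 242) on the rich diet to between 4.91 and 33.3 (median 12.4) on the restricted diet. The groups did not overlap, only 2 of 6 restricted arrays were above background, and the fitted difference was -4.04 ± 0.63 (adjusted p = 0.035). With the arrays at background set to their background value it was at least 9.76-fold lower, and it passed the intensity filter through the rich arrays. Ugt37B1 (-1.76 ± 0.22, adjusted p = 0.017), Ugt37A3 (-1.42 ± 0.17, adjusted p = 0.012) and Ugt49B1 (-1.08 ± 0.17, adjusted p = 0.038) were the others. Of these, Ugt37A3 had only 4 of 6 restricted arrays above background and was at least 2.43-fold lower. The replicate block called 10 of 28 lower (4.63% of all genes). The falls numbered 2, 0 and 0 without gradient 1, 2 or 3 of the rich diet and 6, 1 and 0 without those of the restricted diet.

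**Figure D3:**
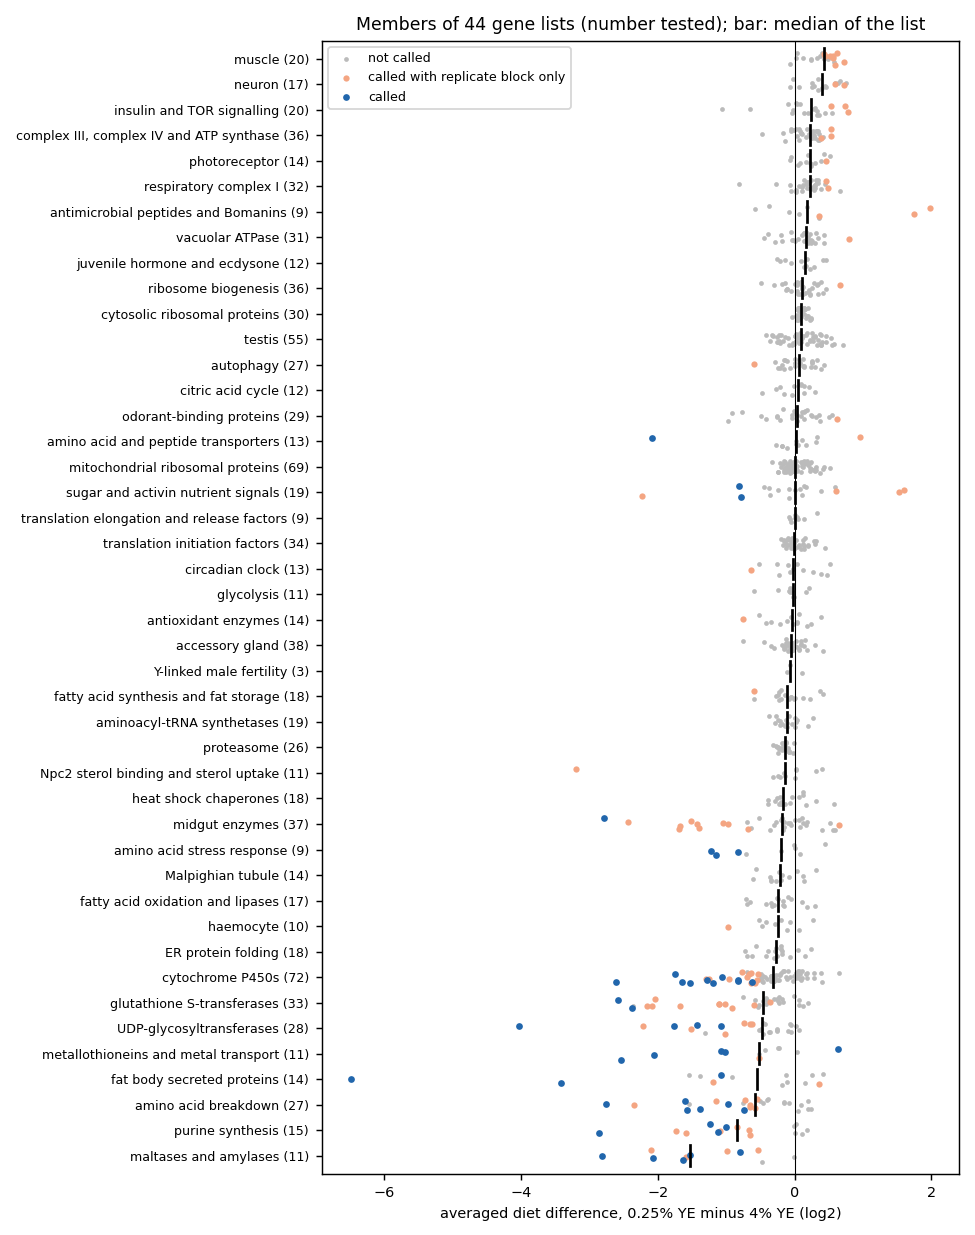
Averaged diet difference (log2) of every tested member of the 44 gene lists with at least 3 tested members, ordered by the list's median (black bar), with the number of tested members in brackets. Blue points are called, orange points are called with the replicate block only and grey points are not called. Maltases and amylases have the lowest median (-1.52) and muscle the highest (0.43).

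The metallothioneins, small proteins that bind copper and other metals, did not move in 1 direction. MtnB ranged from 65.8 to 972 (median 381) on the rich diet and from 25 to 252 (median 70.8) on the restricted diet, and fell by 2.06 ± 0.35 (adjusted p = 0.044). MtnD fell by 2.54 ± 0.35 (adjusted p = 0.023) and MtnC by 1.02 ± 0.16 (adjusted p = 0.034, or 0.066 with the gradient as a random block). Only 4 of 6 restricted arrays of MtnD were above background, so it was at least 5.14-fold lower. MtnA, by contrast, ranged from 2366 to 7131 (median 4917) on the rich diet and from 4955 to 8693 (median 6940.3) on the restricted diet, and rose by 0.64 ± 0.09 (adjusted p = 0.020). The ranges of all 4 genes overlapped over the 6 arrays and did not within a fraction. The falls of MtnB and MtnD were smallest in gradient 1 (-0.98 and -1.47) and larger in gradient 2 (-2.85 and -3.52) and gradient 3 (-2.36 and -2.64). With Tsf1, the metal list had 4 falls (1.21% of all genes) and 1 rise (0.169%) among 11 tested genes and a median of -0.52. Its falls numbered 1, 0 and 0 without gradient 1, 2 or 3 of the rich diet and 5, 1 and 1 without those of the restricted diet. Of these 6 fits, the rise of MtnA remained a call only without gradient 1 of the restricted diet. It was not called on the values as deposited or with median centring either, though its difference stayed between 0.45 and 0.70 over the alternatives.

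Among amino acid and peptide transporters 1 of 13 tested genes fell (1.21% of all genes). acs, of the family of proton-assisted amino acid transporters, ranged from 293 to 562 (median 377) on the rich diet and from 68.5 to 126 (median 90.6) on the restricted diet, without overlap. It fell by 2.09 ± 0.14 (adjusted p = 0.0021) and stayed called without any of the 6 gradients. The median of the list was 0.02, so the other transporters did not follow acs.

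Of 19 tested genes of sugar and activin signalling, 2 fell (1.21% of all genes) and none rose. Pepck1, phosphoenolpyruvate carboxykinase of gluconeogenesis, ranged from 2715 to 6248 (median 4478) on the rich diet and from 2063 to 3312 (median 2178) on the restricted diet, and fell by 0.81 ± 0.11 (adjusted p = 0.022). CCHa2, a peptide hormone that responds to nutrients, ranged from 1288 to 2154 (median 1863) and from 699 to 1375 (median 1079), and fell by 0.79 ± 0.12 (adjusted p = 0.036). Both overlapped over the 6 arrays and neither did within a fraction. The call of CCHa2 was lost with the gradient as a random block (adjusted p = 0.15). The median of the list was 0.01. The list had 0 falls in 5 of the 6 fits with a gradient left out and 3 falls without gradient 1 of the restricted diet.

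The transcription factor sug (sugarbabe) and the activin ligand daw (dawdle) had positive differences that were called only with the replicate block. sug read 263, 120.2 and 109 in the high fraction and 216, 108 and 106 in the low fraction on the rich diet, against 534, 379 and 305 and then 349, 571 and 418 on the restricted diet. All restricted arrays were above all rich arrays, with the rich number 1 arrays the highest of their group, and the difference was 1.53 ± 0.32 (adjusted p = 0.080, or 0.0061 with the block). daw ranged from 66.8 to 171 (median 72.4) and from 147 to 621 (median 247), with overlap, a difference of 1.60 ± 0.44 (adjusted p = 0.18, or 0.0011 with the block). tobi, an alpha-glucosidase gene named as a target of brain insulin, differed by -2.23 ± 0.49 (adjusted p = 0.095, or 0.0047 with the block).

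No gene of insulin and TOR signalling was called among 20 tested, and 3 were called higher with the replicate block (2.28% of all genes). The insulin receptor InR ranged from 74.1 to 237 (median 145) on the rich diet and from 133 to 347 (median 245) on the restricted diet, a difference of 0.78 ± 0.25 (adjusted p = 0.25, or 0.0095 with the block). Its ranges overlapped over the 6 arrays but not within a fraction, and the 3 gradients gave 0.74, 0.80 and 0.80. foxo differed by 0.20 ± 0.40 (adjusted p = 0.90), the kinase S6k by 0.36 ± 0.21 (adjusted p = 0.58) and the insulin-binding protein ImpL2 by 0.44 ± 0.44 (adjusted p = 0.77). The arrays of these 3 genes overlapped within both fractions. The median of the list was 0.24.

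The machinery of translation had no called member among the genes tested. Many cytosolic ribosomal protein genes, RpL4, RpS3 and RpS6 among them, and the elongation factor eEF2 were not matched to a probe set and were not tested. The 30 tested cytosolic ribosomal protein genes differed by a median of 0.10, with 29 of 30 above 0 (54.2% of all genes), but the median was -0.10 when arrays were centred on their medians instead of quantile-normalized, so its direction rests on the scaling. Taken by fraction it was 0.27 (high) and -0.03 (low). The medians were 0.01 for 69 mitochondrial ribosomal proteins, -0.01 for 34 initiation factors and -0.11 for 19 aminoacyl-tRNA synthetases. The 26 proteasome genes all had negative differences, with a median of -0.14 that was -0.28 with median centring and 0.01 with number 1 left out on both diets. None of these lists had a call with any single gradient left out.

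Muscle and neuron genes, which mark other tissues of the whole fly, had the highest medians among the lists with at least 3 tested members. The 20 muscle genes had a median of 0.43 with none called, and 8 called higher with the replicate block (2.28% of all genes), among them the myosin light chain Mlc1 (0.62 ± 0.12, adjusted p = 0.074, or 0.0091 with the block). Mlc1 ranged from 1621 to 3169 (median 2604) on the rich diet and from 3049 to 4208 (median 3901) on the restricted diet. The summed intensity of the muscle list was 29808 to 38442 on the rich arrays and 40907 to 47056 on the restricted arrays, while that of the fat body list moved the other way, as given above. The 17 neuron genes had a median of 0.40 with 2 called higher with the block, the 55 testis genes a median of 0.09 and the 38 accessory gland genes a median of -0.05, with none called in the last 2 lists. Intensities after quantile normalization are relative to all genes of an array, and the part that the tissue lists' shifts have in the falls of fat body and midgut genes was not tested.

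In 33 of the 45 lists no gene was called, which includes those of translation, the proteasome, muscle and neurons. Antimicrobial peptides had no call among 9 tested, although Mtk (metchnikowin) differed by 1.99 ± 0.57 (adjusted p = 0.19, or 0.0018 with the block), from 76.1 to 562 (median 159) on the rich diet to between 215 and 3507 (median 722) on the restricted diet, with overlap. Npc2e, of a family of sterol-binding proteins, had one of the widest gaps, from 295 to 553 (median 433) to between 14.2 and 136 (median 49.5) with no overlap, but its 3 gradients ranged from -2.03 to -4.11 and it was not called (-3.20 ± 0.58, adjusted p = 0.056, or 0.0017 with the block).

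Of the 16 called rises, 6 had all restricted arrays above all rich arrays, and 10 are known only by a CG number. CG13215 read 16, 12.5 and 13.4 in the high fraction and 23.8, 26.8 and 23.8 in the low fraction on the rich diet, where only 3 of 6 arrays were above background. On the restricted diet it read 382, 396 and 362 in the high fraction and 154, 475 and 452 in the low fraction. The fitted rise was 4.16 ± 0.24 (adjusted p = 0.0015). All 3 rich arrays of the high fraction were at background and the rich mean lay below the intensity filter, so the level was at least 14.7-fold higher, with each array at background set to its background value. CG13947 read 719, 396 and 341 in the high fraction and 1361, 1503 and 1503 in the low fraction on the rich diet, against 5172, 3026 and 1989.9 and then 3100.3, 5351 and 4787, a rise of 2.17 ± 0.17 (adjusted p = 0.0045). The CG13947 probe set is of a kind that can also bind other transcripts. No role is given here for either gene. CG14949 (1.72 ± 0.20, adjusted p = 0.012) and CG3348 (1.27 ± 0.19, adjusted p = 0.028) followed.

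The named genes among the rises were few. cbt (cabut), a zinc finger transcription factor, ranged from 606 to 1098 (median 845) on the rich diet and from 1378 to 2082 (median 1492) on the restricted diet, and rose by 0.97 ± 0.15 (adjusted p = 0.034). Nadk1a, an NAD kinase, ranged from 754 to 1362 (median 1159) and from 1446 to 2146 (median 1947), and rose by 0.78 ± 0.13 (adjusted p = 0.041). Neither had overlapping groups. CG14949, CG3348, cbt and Nadk1a each lost their call in 5 of the 6 fits with a gradient left out, all but the one without gradient 1 of the restricted diet.

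Of the 12 largest called falls whose 6 arrays per diet did not overlap, 4 have no role given here, CG15533 (-3.19 ± 0.47), CG34316 (-2.94 ± 0.33), CG13325 (-2.68 ± 0.24) and CG10621 (-2.68 ± 0.35), with adjusted p of 0.028, 0.012, 0.0054 and 0.017.

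Both fractions contributed to the average. Across 9494 genes the diet differences in the high and low fractions correlated at Pearson's r = 0.55, as a description across genes that share arrays and are not independent replicates. For the called falls the median difference was -1.38 (high fraction) and -1.43 (low fraction), and in 65 of 115 the fall was larger in the high fraction. For the called rises the medians were 1.46 and 0.77, and in 13 of 16 the rise was larger in the high fraction. No probe set was called for a difference of the diet effect between the fractions, with 808 at an unadjusted p under 0.05 (7.18%). Alternative fits called at most 3. By gene, 10 of the 16 called rises and 12 of the 115 called falls had such an unadjusted p, as had 673 of all 9494 genes.

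In some called genes the values differed between the fractions, though no such difference was called in the fit reported here. Those given here were chosen after their values were seen. CG43131 differed by -0.22 (high) and -5.52 (low), with only 3 of its 6 restricted arrays above background, and its averaged difference was -2.87 ± 0.36 (adjusted p = 0.017). Set against background values it was at least 1.79-fold lower. dpr6 differed by -0.12 (high) and -2.75 (low), again with only 3 of its 6 restricted arrays above background. Set against background values, the averaged level of dpr6 was at least 1.47-fold lower. Among the called genes, 8 of 131 had rich and restricted arrays apart in 1 fraction only, and the others had them apart in both. Of all 9494 genes, 596 had them apart in both. The calls come from the same arrays, so this is a description only.

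**Figure D4:**
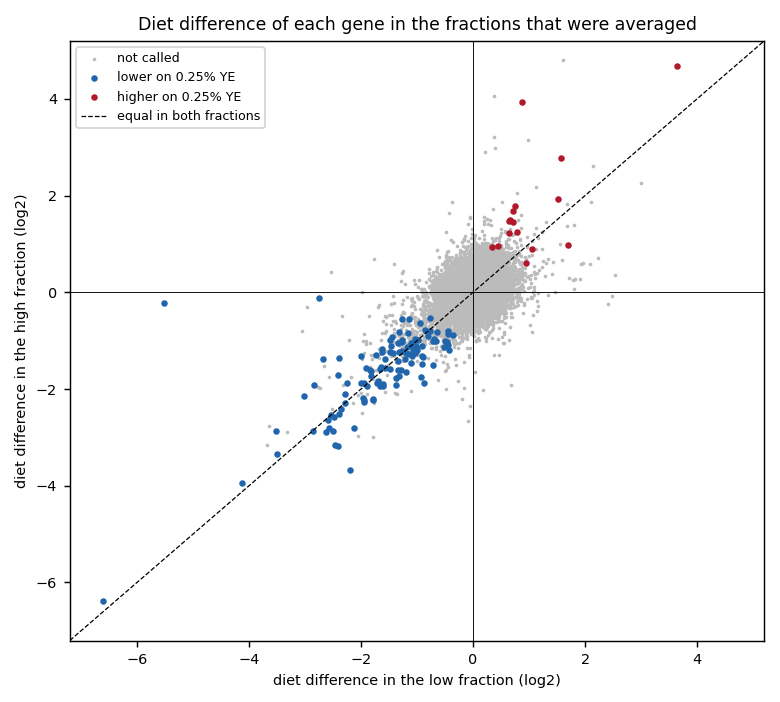
Diet difference (log2, 0.25% YE minus 4% YE) of each gene in the high fraction against that in the low fraction, with the dashed line where both are equal. Of the 115 called falls (blue), 5 differ by more than 1 log2 unit between the fractions, widest in CG43131 (-0.22 high, -5.52 low) and dpr6 (-0.12 high, -2.75 low), and 13 of the 16 called rises (red) lie above it. CG43131 and dpr6 each had only 3 of 6 restricted arrays above background.

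Most of the fallen genes lay toward the heavy polysomes on average. The translational index, the high minus the low fraction on the log2 scale averaged over both diets, was above 0 for 87 of the 115 falls (75.7%) and for 50.8% of all genes. It was above 0 for 3 of the 16 rises (18.8%). The index averages the same arrays over the diets, so a diet effect common to both fractions does not enter it, but the counts are a description and carry no test. Of 9429 pairs of neighbouring tested genes, 5 had both members called, all lower, namely Cyp309a1 with Cyp309a2, CG5002 with Sardh, CG17751 with CG17752, CG17752 with CG16727 and CG6283 with CG6271. In 10 of the 131 called genes the probe set is of a kind that can also bind other transcripts.

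**Figure D5:**
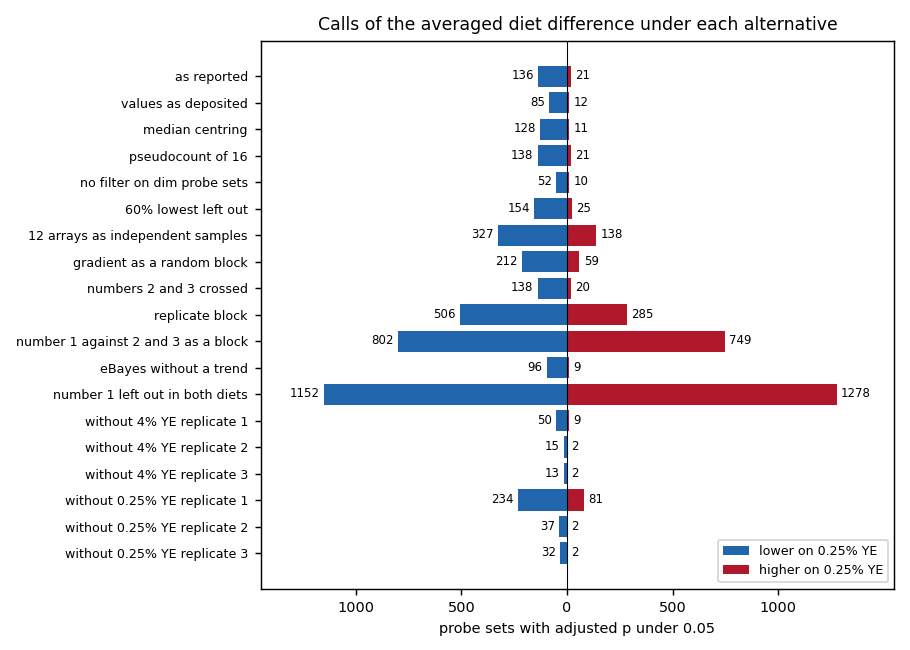
Number of probe sets called lower (blue, to the left) and higher (red, to the right) on 0.25% YE under the reported setting and each alternative. Falls exceed rises in every setting except with number 1 left out on both diets, where 1152 are lower and 1278 higher.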

How the data were processed

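Each file is a table of array intensities deposited by the authors, on a linear scale with values below 0 on every array. How those intensities were made (background correction, summary of probes) is not given in the sources used here. The authors' labels give 4 groups of 3 arrays, and 4% YE arrays without a number were taken as number 1. The members and gene lists were chosen with earlier results of these data known. In R 4.3.3, 18769 probe sets that are not controls were quantile-normalized, floored at 0 and transformed as log2(value + 1), and the 7508 dimmest by mean intensity (40%) were left out. High and low arrays of a gradient were averaged and 3 against 3 gradients were compared with limma 3.58.1 (lmFit, eBayes with an intensity trend), two-sided, with p-values adjusted by Benjamini-Hochberg over 11261 probe sets. The difference between fractions used the high minus low value of each gradient in the same way. The brightest probe set stood for a gene, named from the platform annotation, which gave 1 symbol for 13646 probe sets, several for 402 and none for 4721, and 13543 of the symbols' probe sets matched RefSeq.

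Same-numbered gradients of the 2 diets deviated together from their diet means (r = 0.466 to 0.675 over 3 pairs). Gradients 2 and 3 crossed over the diets did so as well (r = 0.443 to 0.597). The values therefore set number 1 apart and do not pair numbers 2 and 3. A pairing by number is taken from the data and not stated by the labels. The fit with the number as a replicate block is given as counts, and singly only for some of the genes whose call it changes. It called 200 genes higher and 325 lower that the reported fit did not. The labels call the arrays biological replicates, and their number limits the precision. On simulated data with the same means and spread, and errors drawn independently for each probe set, 34 of 100 probe sets changed 2-fold, 88 of 100 changed 4-fold and 3 of 11061 unchanged ones were called in the averaged comparison. The simulation leaves out the deviations that the number 1 arrays share across probe sets, so its counts need not hold for these arrays. Genes chosen by rule were the largest called falls and rises (up to 12 each) whose 6 arrays per diet did not overlap, up to 4 called members of smallest p per list, or else the member of smallest p, and InR, foxo, S6k, sug, daw and ImpL2. Not all of those without a call are described. Other genes described singly were picked after their values were seen. Alternatives varied normalization, pseudocount, filter, trend, blocking and the gradients included.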

Additional observations from a re-analysis of the deposited data

How the results depend on the processing

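Counts of probe sets called higher and lower on 0.25% YE (21 and 136 as reported) changed with the setting. They were 12 and 85 on the values as deposited, which shifted the median of all probe sets by 0.18 on the log2 scale against 0.04 after quantile normalization. They were 11 and 128 with median centring, 10 and 52 with no filter on dim probe sets, where 18769 were tested, and 9 and 96 without the intensity trend. Fits that handle the pairing otherwise gave more calls, with 138 and 327 for 12 arrays as independent samples, 59 and 212 with the gradient as a random block (consensus correlation 0.26, with 9 of the 131 called genes lost), 285 and 506 with the replicate block, 749 and 802 with number 1 against 2 and 3 as a block, and 1278 and 1152 with number 1 left out on both diets. The next to last alternative was chosen after seeing the data. Leaving out 1 gradient gave 2 to 81 rises and 13 to 234 falls, fewest without gradient 3 of the rich diet. The difference between fractions had 0 calls as reported, 0 with any 1 gradient left out, 1 with independent arrays, a random gradient block, the replicate block, number 1 as a block or no trend, and 3 with number 1 left out, and the genes concerned were CG43131, Pdi and Mnr. A pseudocount of 16, a stricter filter and crossing numbers 2 and 3 kept both counts within 1.5 times. Of the 83 genes chosen by rule, 3 changed sign, none of them called. SdhC was at -0.0066 with median centring. Pp1-Y2 ranged from -0.14 to 0.38 and foxo from -0.22 to 0.47 with a gradient left out. The cause of these changes was not tested. Dim genes such as CG13215 on the rich diet, with 3 of 6 arrays above background, have less certain folds.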

Other observations

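The called genes given here lie outside the lists and were picked after their values were seen, so they stand for no group. Mthfs, which returns folinic acid to the folate pool, ranged from 481 to 1365 (median 941) on the rich diet and from 172 to 384 (median 267) on the restricted diet, a difference of -1.74 ± 0.15 (adjusted p = 0.0045). Tdh, threonine dehydrogenase, went from 163 to 247 (median 191) to between 63.0 and 102 (median 78.5), a difference of -1.30 ± 0.13 (adjusted p = 0.011). Gcat, which takes the product of Tdh to glycine, went from 139 to 455 (median 307) to between 42.4 and 128 (median 80.9), a difference of -1.77 ± 0.21 (adjusted p = 0.013). Srr, serine racemase, fell by 1.11 ± 0.16 (adjusted p = 0.025). In Mthfs, Tdh, Gcat and Srr the 6 rich arrays all lay above the 6 restricted arrays.

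Other such falls were those of galactokinase (Galk, -1.12 ± 0.15, adjusted p = 0.018), fructose-1,6-bisphosphatase (fbp, -1.10 ± 0.18, adjusted p = 0.038) and sorbitol dehydrogenase 1 (Sodh1, -1.79 ± 0.23, adjusted p = 0.017), while none of 11 glycolysis genes (median -0.03) and none of 12 citric acid cycle genes (median 0.04) was called. CG32444, for which no role is given here, was measured with a small error, at -1.58 ± 0.10 (adjusted p = 0.0016), from 4371 to 5116 (median 4922) on the rich diet to between 1237 and 1979.8 (median 1666) on the restricted diet. Cox17, a copper chaperone of cytochrome oxidase assembly, was among the rises (0.70 ± 0.12, adjusted p = 0.045), with its ranges overlapping over the 6 arrays and apart within each fraction. With number 1 left out on both diets, 13 of 18 tested genes of protein folding in the endoplasmic reticulum were called lower, against 0 as reported. In that fit 1152 of 11261 probe sets were lower.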
